A study of Mus musculus with 7 samples.

Results

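Peaks of short nascent strand sequencing near vomeronasal receptor genes are described here, in mouse embryonic stem cells (mESCs). A peak or origin was a member if its midpoint lay within 20 kb of an autosomal protein-coding gene whose symbol starts with Vmn1r or Vmn2r followed by a digit (RefSeq positions on GRCm38.p6, which is mm10). Of 543251 autosomal rows in the lists used, 2928 were members. They comprised 2583 of 462402 peaks called by MACS2 in 6 libraries and 345 of 80849 origins listed for 3 conditions.

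Vomeronasal receptors are G protein-coupled receptors of sensory neurons in the vomeronasal organ, where they detect pheromones and other chemical signals. Vmn1r receptors (V1R family) are short genes whose coding sequence lies in 1 exon. Vmn2r receptors (V2R family) have a large extracellular domain and several coding exons. Both families lie in clusters of similar genes, and mESCs are not a cell type in which these receptors are known to act. Replication origins are the sites where DNA synthesis starts, and short nascent strands are the short DNA pieces made there.

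In mESCs the study asked where origins lie without treatment and under 2 kinds of replication stress. The WT 2 library came from untreated TetO-CDC6 mESCs, which carry a doxycycline-inducible CDC6 transgene and were derived from a mouse model. APH 1 and APH 2 were the same TetO-CDC6 cells after 2.5 h in aphidicolin (0.5 µM), which inhibits the polymerases that copy DNA. CDC6 1 and CDC6 2 were those cells after 30 h of doxycycline (1 µg/ml), which induces the CDC6 transgene, a loader of the replicative helicase. WT 1 came from untreated embryonic stem cells of WT genotype, another line that had been submitted earlier and was grown in a different medium. The labels do not say whether the 2 libraries of a condition are separate cultures, so p-values here reflect variation among these libraries alone, possibly technical variation. Peak lists of DNA do not measure CDC6 levels or cell identity, so neither label was checked. Each library had 68896 to 93089 autosomal MACS peaks.

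Of 352 Vmn genes matched by symbol, 349 were used (228 Vmn1r and 121 Vmn2r). Vmn2r122, Vmn1r186 and Vmn1r187 have positions before the first peak of any list on their chromosome and were not used. The 349 genes lie on 11 chromosomes, with 176 on chromosome 7. The median gene length was 924 bp for Vmn1r and 24737 bp for Vmn2r genes. Windows of 20 kb on each side overlap between neighbours, and merged they covered 14.967 Mb of the 2394 Mb between the first and last autosomal peaks. Neighbouring genes therefore share peaks and are not independent observations.

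Promoter sequences were taken from RefSeq (GRCm38.p6) as 250 bases before to 50 bases after the transcript start that the promoter table gives, and 320 of the 349 genes were matched, with 321 promoters. That start lay more than 1 kb from the outer start of the gene record for 14 of the 321, among them Vmn1r4 (32599 bp) and Vmn1r14 (7284 bp). The first pair lies in a cluster of Vmn1r genes that had no MACS peak in any library. These promoters, Vmn1r242 (chr7:20233779-20234078, minus strand) and Vmn1r111 (chr7:20703167-20703466, minus strand), differ at 1 of 300 bases, an identity of 99.7%, and the capital letter marks the differing base. The pair is shown for its similarity, among pairs of the cluster that are not identical, and was chosen after the values were seen.
Vmn1r242: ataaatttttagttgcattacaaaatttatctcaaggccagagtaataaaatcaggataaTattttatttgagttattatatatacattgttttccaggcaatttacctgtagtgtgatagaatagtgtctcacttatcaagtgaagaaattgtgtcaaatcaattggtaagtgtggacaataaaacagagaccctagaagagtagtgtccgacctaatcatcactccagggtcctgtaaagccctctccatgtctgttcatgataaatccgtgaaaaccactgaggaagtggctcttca
Vmn1r111: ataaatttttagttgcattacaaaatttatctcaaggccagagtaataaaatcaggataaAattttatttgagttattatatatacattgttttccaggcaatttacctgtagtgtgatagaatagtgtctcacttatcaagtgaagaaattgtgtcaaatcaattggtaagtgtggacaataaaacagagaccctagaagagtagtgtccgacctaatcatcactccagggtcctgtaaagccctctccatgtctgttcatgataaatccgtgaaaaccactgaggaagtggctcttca
The next sequences are the promoters of Vmn1r192 (chr13:22187999-22188298, minus strand) and Vmn1r48 (chr6:90036792-90037091, minus strand), shown because each lay under a MACS peak in at least 1 library and had a listed origin within 1 kb of the gene. Capitals mark each CG dinucleotide, of which both have 2.
Vmn1r192: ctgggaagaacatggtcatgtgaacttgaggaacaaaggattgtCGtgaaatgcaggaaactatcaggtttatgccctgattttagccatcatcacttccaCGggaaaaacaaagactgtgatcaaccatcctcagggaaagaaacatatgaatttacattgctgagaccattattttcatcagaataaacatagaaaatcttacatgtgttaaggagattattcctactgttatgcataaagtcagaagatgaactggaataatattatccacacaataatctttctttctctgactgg
Vmn1r48: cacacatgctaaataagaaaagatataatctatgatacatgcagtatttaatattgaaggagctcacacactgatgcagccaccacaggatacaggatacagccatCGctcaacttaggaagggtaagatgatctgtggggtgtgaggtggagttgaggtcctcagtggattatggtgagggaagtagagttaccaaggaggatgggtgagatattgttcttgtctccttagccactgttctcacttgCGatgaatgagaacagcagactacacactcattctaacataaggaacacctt
Every word of 31 bases in the Vmn1r242, Vmn1r111 and Vmn1r48 promoters also occurred in another gene's promoter, against 9.63% of the words of Vmn1r192. The Vmn1r48 words were shared with Vmn1r47 alone, whereas those of Vmn1r242 were shared with 57 genes.

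Vmn windows held 382 MACS peaks in WT 1 and 625 in WT 2. APH 1 had 508 and APH 2 had 383, and CDC6 1 and CDC6 2 had 335 and 350. As a share of all autosomal peaks, WT 1 had 0.410% and WT 2 0.797%, whereas the APH libraries had 0.711% and 0.556% and the CDC6 libraries 0.473% and 0.438%. The 2 WT libraries were the lowest and the highest of the 6, so the stressed libraries all fell between them. The WT mean was 0.604% ± 0.274 (SD, n = 2). APH averaged 0.633% ± 0.110 (SD, n = 2), and CDC6 averaged 0.456% ± 0.0247 (SD, n = 2). Subtracting the WT mean from the mean over the 4 APH and CDC6 libraries gave −0.0592 percentage points (two-sided exact permutation test over 15 splits, p = 0.8, adjusted p = 0.8 over 6 tests). That design cannot give a p below 0.0667. Without WT 2 the difference was 0.134 points in the other direction. The line of WT 1 cannot be told apart from its library.

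Peak density in the Vmn windows was 25.5 peaks per Mb for WT 1 and 41.8 for WT 2. It was 33.9 for APH 1 and 25.6 for APH 2, and 22.4 and 23.4 for the CDC6 libraries. In the rest of the autosomes it was 39.0, 32.7, 29.8, 28.8, 29.6 and 33.4 peaks per Mb, in the same order. Vmn windows were thus denser than the rest in WT 2 and APH 1 and sparser in the other 4 libraries. The mean log2 ratio was −0.19 (SD 0.391, n = 6 libraries, two-sided exact sign-flip permutation test, p = 0.28125, adjusted p = 0.3375), which did not pass the threshold of an adjusted p of 0.05. With the 20000 strongest peaks of each library the ratio was −0.72 (exact p = 0.03125, adjusted p = 0.0625). WT 1 had the most peaks in the rest of the autosomes and fewer near Vmn genes than WT 2.

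Olfactory receptor genes, the other large clustered family of chemoreceptors, gave 29.1 and 42.7 peaks per Mb in WT, 31.4 and 27.8 under APH, and 24.9 and 29.1 under CDC6. Vmn density was lower than olfactory density in 5 of 6 libraries, with a mean log2 ratio of −0.12 (SD 0.145, n = 6, exact sign-flip permutation test, p = 0.09375, adjusted p = 0.141). The order of the libraries was led by WT 2 and APH 1 in both families. Without the Vmn1r genes of the peak-free stretch described next, the ratio turned to 0.11, a rise that follows from removing sequence without peaks and is given without a test. With the 20000 strongest peaks it was −0.23 (exact p = 0.03125, adjusted p = 0.0625).

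**Figure D1:**
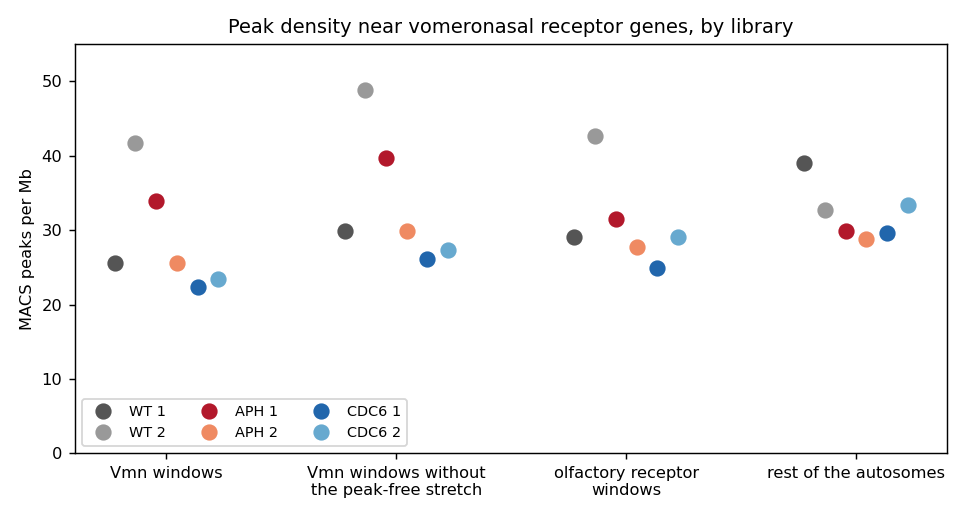
MACS peaks per Mb (y axis, linear from 0) in merged windows of Vmn genes, in Vmn windows without the peak-free stretch, in olfactory receptor windows and in the rest of the autosomes; each point is 1 library. WT 2 is highest near both receptor families, at 41.8 and 42.7 peaks per Mb, while WT 1 is highest in the rest of the autosomes, at 39.0.

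The longest autosomal stretch without a MACS peak in any of the 6 libraries was filled with Vmn1r genes. It ran over chr7:20076621-23285658, a length of 3.21 Mb, and contained 85 protein-coding genes, of which 70 were Vmn1r genes and 15 were other genes. Vmn1r91 was the first gene inside. No listed origin of any condition and 1 region of the authors' second lists fell inside. At each library's mean autosomal density, a stretch of that length would hold 125 peaks for WT 1, 105 for WT 2, 95.8 for APH 1, 92.4 for APH 2, 94.9 for CDC6 1 and 107 for CDC6 2. Since the stretch was found from the peaks, its count of 0 is a description.

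The next longest stretches, on chromosomes 4, 5, 2 and 8, measured 2.41, 2.30, 1.87 and 1.36 Mb and held no Vmn gene. All 5 contained between 10 and 85 protein-coding genes, among them Zfp984 on chromosome 4, Pramel genes on chromosome 5 and Defa21 on chromosome 8. Altogether 389 stretches were longer than 100 kb. The first stretch thus takes 70 of the 228 Vmn1r genes used, and several values below change without it.

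Promoters in the stretch shared more sequence with promoters of other genes than other Vmn promoters did. Of 68 promoters in the stretch, 52 were identical to another of the stretch. The median share of 31-base words found in another gene's promoter was 100% over 68 promoters of the stretch, 0% over 137 other Vmn1r promoters and 29.8% over 116 Vmn2r promoters. At least 50% of the words were shared in 67 of 68 promoters of the stretch, in 12 of 137 other Vmn1r promoters (8.76%) and in 35 of 116 Vmn2r promoters (30.2%). The background was 3.80% of all protein-coding promoters. Much sharing also occurred in a Vmn2r block of chromosome 7, described below, that had peaks in all 6 libraries. Of the block's genes named below for their peak counts, Vmn2r33 shared 100% of its words, Vmn2r41 90.4%, Vmn2r35 75.9% and Vmn2r36 44.4%. The sources used here do not say how reads with several matches were treated, and the part of repeated sequence in the missing peaks was not tested.

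**Figure D2:**
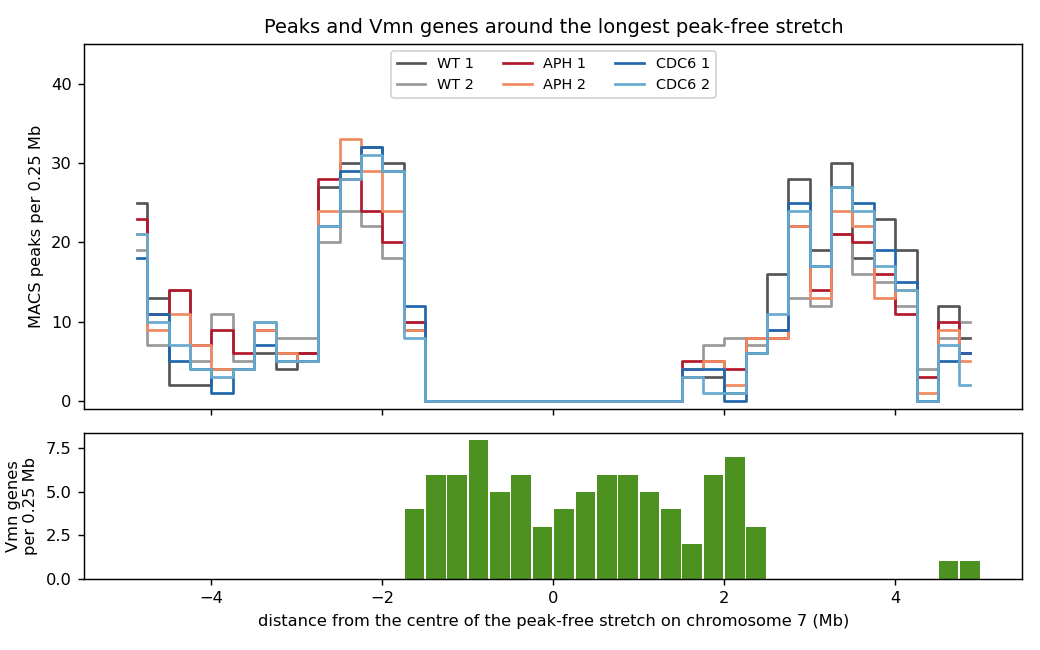
MACS peaks per 0.25 Mb in each library (upper y axis) and Vmn genes per 0.25 Mb (lower y axis) against the distance from the centre of the stretch on chromosome 7, in Mb. All 6 lines are at 0 in the bins centred from −1.375 to 1.375 Mb. Peaks appear again at both edges of the 3.21 Mb that hold 70 Vmn1r genes, and are at first few on the right.

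**Figure D3:**
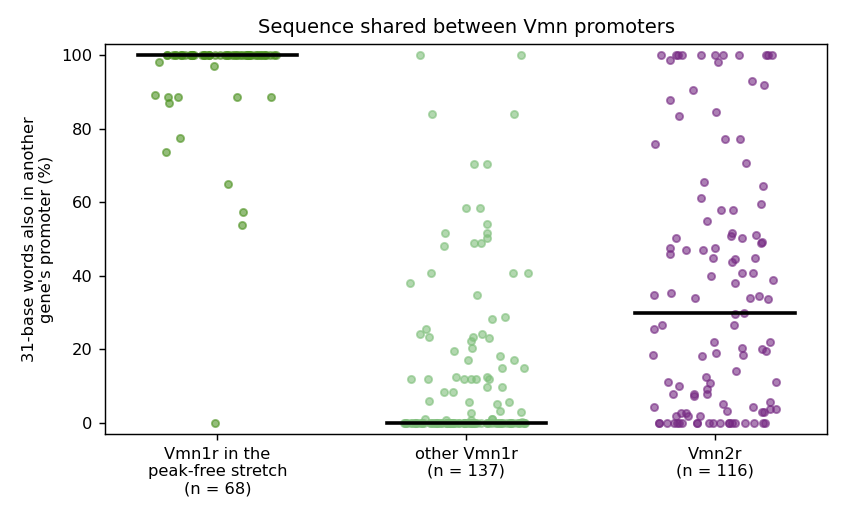
Percentage of 31-base words of each promoter that also occur in another gene's promoter (y axis); each point is 1 promoter, spread sideways for display, and bars are medians. Medians are 100% in the stretch, 0% for other Vmn1r genes and 29.8% for Vmn2r genes.

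Of the 349 Vmn windows, 201 held a peak of WT 1, 252 of WT 2, 241 of APH 1, 211 of APH 2, 205 of CDC6 1 and 203 of CDC6 2. A peak was present in all 6 libraries for 135 genes (38.7%), against 38.9% of olfactory receptor genes and 80.6% of all protein-coding genes. No library had a peak for 77 genes (22.1%), against 3.81% of olfactory receptor genes and 2.40% of all. Of these 77, 70 were the Vmn1r genes of the stretch. The other 7 were Vmn1r220, Vmn1r225, Vmn2r129, Vmn1r50, Vmn2r21, Vmn1r62 and Vmn2r70, or 2.51% of the 279 Vmn genes outside it. Summed over the 6 libraries, the fullest window was that of Vmn2r60 (chr7:42116471-42195776), with 7 and 10 peaks in WT, 8 and 6 under APH, and 4 and 4 under CDC6. Within single libraries other windows could hold more, such as that of Vmn2r1 with 11 peaks in WT 1.

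Vmn1r windows held 22.9 and 36.2 peaks per Mb in WT, 29.1 and 22.9 under APH, and 20.6 and 21.7 under CDC6. Vmn2r windows held 28.1 and 47.2 in WT, 38.7 and 28.2 under APH, and 24.2 and 25.1 under CDC6. Vmn1r density was the lower of the pair in 6 of 6 libraries, with a mean log2 ratio of −0.31 (SD 0.0776, n = 6, exact sign-flip permutation test, p = 0.03125, the smallest it can give, adjusted p = 0.0938). The direction turned without the stretch: Vmn1r density was then 32.2 and 51.0 in WT, 41.0 and 32.2 under APH, and 29.0 and 30.5 under CDC6, above Vmn2r in 6 of 6 libraries, with a ratio of 0.19. The stretch was found for its lack of peaks and holds no Vmn2r gene, so leaving it out can only raise the Vmn1r density, and no test is given. The difference between the families with all genes did not pass the adjusted threshold.

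Inside Vmn gene bodies the density was 20.6 and 38.7 peaks per Mb in WT, 31.6 and 23.2 under APH, and 22.3 and 24.3 under CDC6. The flanks had 27.0 and 42.7 in WT, 34.7 and 26.3 under APH, and 22.4 and 23.1 under CDC6. Bodies were sparser in 5 of 6 libraries, with a mean log2 ratio of −0.13 (SD 0.160, n = 6, exact sign-flip permutation test, p = 0.09375, adjusted p = 0.141). Without the stretch, which is mostly flank and was found for its lack of peaks, the ratio had to fall and was −0.40, given without a test. With the 20000 strongest peaks of each library it was −0.0054.

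Peaks near Vmn genes ranked below other peaks of the same library. By −log10 q their mean percentile rank was 42.8 and 45.2 in WT, 39.9 and 42.7 under APH, and 43.5 and 48.1 under CDC6, with other autosomal peaks at 50.0 to 50.1. The mean difference was −6.35 percentile points (SD 2.79, n = 6, range −10.22 to −1.88, lower in 6 of 6 libraries). The exact sign-flip permutation test gave p = 0.03125, its smallest possible value, with an adjusted p of 0.0938, which missed the threshold. The median of the authors' fold over control was 2.53 and 2.36 in WT, 2.47 and 2.40 under APH, and 2.44 and 2.75 under CDC6 near Vmn genes. Other peaks had median folds of 2.61, 2.43, 2.61, 2.52, 2.51 and 2.74 in the same order, so only CDC6 2 had the higher median near Vmn genes.

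The median width of Vmn peaks was 1034.5 and 1390 bp in WT, 1211.5 and 1122 bp under APH, and 1048 and 1017 bp under CDC6. Other peaks had 1077, 1166, 1125, 1122, 1121 and 1036 bp. The Vmn peaks of WT 2 and APH 1, the libraries with the most of them, were wider than other peaks of those libraries, and those of WT 1, CDC6 1 and CDC6 2 were narrower.

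Peaks of WT 2 near Vmn genes were seldom found in its partner library. A peak of the other library of the condition overlapped 57.3% of the Vmn peaks of WT 1, 34.6% of WT 2, 64.8% of APH 1, 91.9% of APH 2, 68.4% of CDC6 1 and 65.4% of CDC6 2. For other autosomal peaks the shares were 43.1%, 52.2%, 78.3%, 83.7%, 76.5% and 68.1%. The share of Vmn peaks found again was thus above that of other peaks in WT 1 and APH 2 and below it in the remaining 4 libraries, a comparison given without a test. The numbers found again were close within a pair, at 219 of 382 in WT 1 and 216 of 625 in WT 2. They were 329 of 508 in APH 1 and 352 of 383 in APH 2. The shares therefore depend on how many Vmn peaks each library had. The share of Vmn peaks in their condition's origin list was 18.6% and 11.4% in WT, 27.8% and 37.3% under APH, and 38.2% and 36.9% under CDC6. For other peaks it was 20.3%, 24.4%, 41.3%, 42.8%, 41.1% and 36.6%.

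The 349 genes formed 58 clusters of windows separated by more than 100 kb, and 8 clusters with at least 10 genes held 173 genes. WT 2 had more peaks than the other WT library, and at least as many as each stressed library, in 37 of the 58 clusters. That count includes clusters in which a stressed library had as many peaks as WT 2. The cluster from Vmn1r188 to Vmn1r223 on chromosome 13 (35 genes) had 25 and 41 peaks in WT, 36 and 26 under APH, and 26 and 30 under CDC6. Vmn1r91 to Vmn1r129 (35 genes) and Vmn1r137 to Vmn1r260 (26 genes), both on chromosome 7 in the stretch, had 0 in all 6 libraries. The pair of clusters with 35 genes each were therefore opposite in whether peaks were called.

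On chromosome 6, the cluster from Vmn1r4 to Vmn1r20 (17 genes) had 10 peaks in WT 1 and 30 in WT 2, with 26 and 20 in APH and 18 and 21 in CDC6. From Vmn1r40 to Vmn1r54 (15 genes) the libraries were closer, with 19 and 24 in WT, 18 and 21 under APH, and 20 and 15 under CDC6. WT 1 stood below the other 5 libraries in the first of these clusters and within their range in the second. The chromosome 17 cluster from Vmn2r105 to Vmn1r233 (16 genes) had 17 and 23 peaks in WT, 18 and 12 under APH, and 16 and 19 under CDC6.

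Still on chromosome 7, Vmn1r72 to Vmn1r84 (13 genes) had 9 and 22 peaks in WT, 20 and 11 under APH, and 10 and 13 under CDC6. Vmn1r167 to Vmn1r183 (16 genes), which lies beside the stretch, had 8 and 18 in WT, 13 and 10 under APH, and 5 and 2 under CDC6. That cluster had 0 origins in the WT list, 5 in the APH list and 0 in the CDC6 list. It was the large cluster with peaks in which both CDC6 libraries lay below the other 4.

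A block of 25 genes on chromosome 7 (chr7:7192996-10295351), of which 24 are Vmn2r genes, was chosen after its values were seen and is given without a test. It had 47 and 76 peaks in WT, 102 and 46 under APH, and 26 and 22 under CDC6. These were 12.3% and 12.2% of the Vmn peaks of the WT libraries, 20.1% and 12.01% under APH, and 7.76% and 6.29% under CDC6. Outside the block the libraries had 335, 549, 406, 337, 309 and 328 Vmn peaks, so CDC6 1 and CDC6 2 came close to WT 1 and APH 2 there. The condition lists had 2 origins of the block in WT, 10 in APH and 5 in CDC6.

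**Figure D4:**
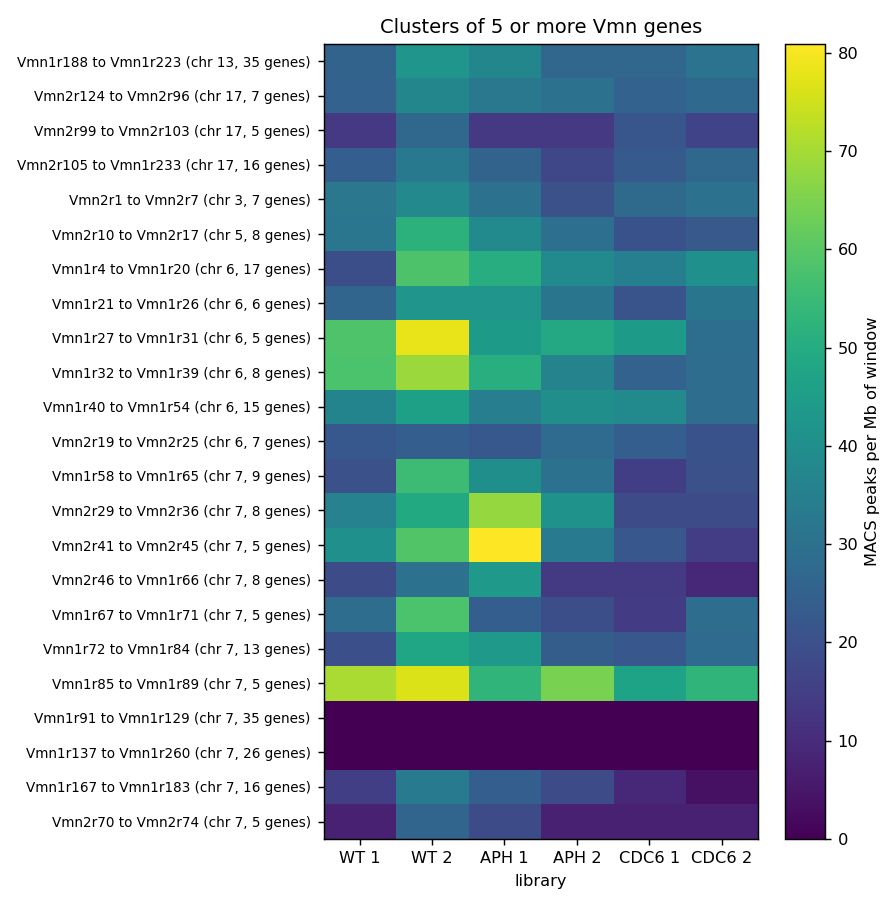
MACS peaks per Mb (colour scale) in each cluster with at least 5 Vmn genes (rows) in each of the 6 libraries (columns). The 2 clusters of the peak-free stretch are at 0 in all columns, and WT 2 and APH 1 are brightest in most Vmn2r rows of chromosome 7.

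Changes at single genes were tested with limma on log2(number + 1) of peaks in each window, scaled to the mean autosomal total, over 19728 windows of protein-coding genes with a peak in at least 2 libraries. Of these, 256 were Vmn windows. None of the 256 passed an adjusted p of 0.05 when APH or CDC6 was set against WT, or APH against CDC6, and the background was 0% of all windows in each contrast. At an unadjusted p under 0.05 there were 20 Vmn windows in APH minus WT (7.81%, background 8.46%), 30 in CDC6 minus WT (11.7%, background 8.65%) and 39 in APH minus CDC6 (15.2%, background 9.86%). These counts moved with single libraries, for example to 75 without WT 2 (30.2%, background 21.2%) and to 8 without APH 2 (3.15%, background 4.43%) in APH minus WT. In CDC6 minus WT they lay between 13 (without CDC6 2) and 56 (without WT 2), and in APH minus CDC6 between 13 (without APH 1) and 63 (without WT 1). The median Vmn log2 change was 0.14, −0.17 and 0.24, beside 0.00, 0.13 and −0.14 over all windows. The first of these medians was −0.22 without WT 1 and 0.46 without WT 2, the second −0.49 and 0.15, and the third fell to 0.01 without CDC6 2. The direction of the medians against WT therefore rested on which WT library was used. These contrasts share libraries, so they are given side by side. With no filter on windows with few peaks, 6, 3 and 6 of 349 Vmn windows passed. Over all 20514 windows, 113, 106 and 68 passed. Vmn1r203 was among the Vmn windows that passed in both contrasts of APH.

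Vmn2r36 and Vmn2r33, both in the Vmn2r block, had the smallest p-values in the CDC6 contrasts. Vmn2r36 had 3 and 3 peaks in WT, 5 and 3 under APH, and 0 and 0 under CDC6. The CDC6 libraries thus lay apart from the other 4, with a log2 change in CDC6 minus WT of −1.89 ± 0.334 (SE, limma adjusted p = 0.568) and in APH minus CDC6 of 2.40 ± 0.334 (SE, limma adjusted p = 0.413). Vmn2r33 had 4 and 2 peaks in WT, 3 and 2 under APH, and 0 and 0 under CDC6, with −1.84 in CDC6 minus WT and 1.89 in APH minus CDC6. The labels of the second lists may be shifted between conditions, so their values here and below cannot test a change. As labelled they gave −0.09 and 0.44 for Vmn2r36 and −1.42 and 0 for Vmn2r33, in the same order. Vmn2r35, which lies between them, had 1 and 8 peaks in WT, 7 and 5 under APH, and 4 and 3 under CDC6, so the block was not empty in CDC6; it is named after its values were seen. Vmn2r41, in the same block, had 3 and 5 in WT, 6 and 1 under APH, and 0 and 0 under CDC6, with −2.18 in CDC6 minus WT.

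Vmn2r92 on chromosome 17 had 2 and 1 peaks in WT, 5 and 4 under APH, and 3 and 4 under CDC6. Both stressed conditions were above WT in every library, by 1.37 ± 0.292 for APH (SE, limma adjusted p = 0.459) and by 0.99 ± 0.292 for CDC6 (SE, limma adjusted p = 0.568). In the authors' second lists, used as labelled, the APH value was −0.45, which may compare other conditions. Vmn1r9 had 0 and 1 peaks in WT, 4 and 3 under APH, and 1 and 1 under CDC6, a value of 1.77 in APH minus WT. Vmn1r24 had 0 and 0 in WT, 2 and 1 under APH, and 0 and 0 under CDC6, a value of 1.37.

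In the other direction, Vmn1r235 had 4 and 4 peaks in WT, 1 and 1 under APH, and 1 and 2 under CDC6, with −1.14 in APH minus WT. Vmn2r59 had 2 and 3 in WT, 0 and 0 under APH, and 2 and 0 under CDC6, with −1.70. Second lists as labelled gave 0.10 for Vmn1r235 and 0.94 for Vmn2r59. Vmn1r203 had 1 and 1 in WT, 0 and 0 under APH, and 1 and 1 under CDC6, with −0.93 in APH minus WT and −1.02 in APH minus CDC6. Vmn1r219 had the same 6 numbers and −1.02 in APH minus CDC6, with 0.73 in the second lists as labelled. For Vmn1r203 and Vmn1r219 the values rest on 1 peak a library that was called or not called, and for Vmn1r235 and Vmn2r59 on 2 or 3.

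Of the remaining named genes, Vmn2r98 had no peak in WT or APH and 1 and 2 in CDC6, with 1.31 in CDC6 minus WT and −1.31 in APH minus CDC6. Vmn2r5 had 0 and 0 in WT, 2 and 0 under APH, and 1 and 2 under CDC6, with 1.31 in CDC6 minus WT. Vmn1r177, of the cluster beside the stretch, had 1 and 1 in WT, 2 and 2 under APH, and 0 and 0 under CDC6. Its value was 1.68 in APH minus CDC6, and 0.10 in the second lists as labelled. No adjusted p among all these genes was below 0.413.

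Other genes of vomeronasal signalling were taken from a list of 25, of which 24 were in the annotation and 21 were tested. None passed the limma threshold in any contrast. Trpc2, the cation channel of vomeronasal neurons, had 7 and 1 peaks in WT, 0 and 0 under APH, and 5 and 4 under CDC6. Calr4, a chaperone of the endoplasmic reticulum, had 3 and 3 in WT, 0 and 0 under APH, and 1 and 1 under CDC6, with −1.89 in APH minus WT (limma adjusted p = 0.459). Gnai2, the G protein subunit of V1R neurons, had 6 and 4 in WT, 6 and 8 under APH, and 6 and 8 under CDC6. Gnao1, its counterpart in V2R neurons, had 22 and 8 in WT, 8 and 7 under APH, and 15 and 20 under CDC6. The WT libraries differed in both directions in this list. WT 1 had more peaks than WT 2 at Trpc2 and Gnao1, as it did over all autosomal peaks. WT 2 had more at Fpr-rs3, H2-M9 and other genes of the list, as in the Vmn windows as a whole.

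The condition lists held 71 Vmn origins in WT, 145 in APH and 129 in CDC6. These were 0.359%, 0.474% and 0.423% of the autosomal origins of each list. Per Mb the Vmn windows had 4.74, 9.69 and 8.62 origins and the rest of the autosomes 8.28, 12.8 and 12.8, so Vmn windows had fewer in each list. The APH list held 2.04 times and the CDC6 list 1.82 times as many Vmn origins as the WT list. Over all autosomal origins the factors were 1.55 and 1.54, and near olfactory receptors 1.62 and 1.48. With 1 list a condition there is no replicate and no test. In lists rebuilt as peaks found in both libraries, Vmn origins numbered 219 in WT, 329 in APH and 229 in CDC6. The CDC6 factor was then 1.05, and the APH factor was also smaller than in the condition lists. The rebuilt lists took the peaks of WT 1, APH 1 and CDC6 1 that were found again. Away from Vmn genes these were 43.1%, 78.3% and 76.5% of the peaks of those libraries. No factor over all autosomal origins was taken for the rebuilt lists. Whether the Vmn factors exceed the autosomal ones apart from how the lists were made was therefore not tested.

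Vmn1r windows held 42 origins in WT, 75 in APH and 62 in CDC6, and Vmn2r windows 29, 70 and 67. A listed origin lay within 20 kb of 70 Vmn genes in WT (20.1%), 128 in APH (36.7%) and 114 in CDC6 (32.7%). Over all protein-coding genes the shares were 63.8%, 71.6% and 74.6%. From the WT to the APH list, 75 Vmn genes (21.5%) gained an origin and 17 (4.87%) lost one, with backgrounds of 12.6% and 4.79% of all genes. From WT to CDC6, 63 (18.1%) gained and 19 (5.44%) lost one, with backgrounds of 14.5% and 3.72%. From CDC6 to APH, 35 (10.0%) gained and 21 (6.02%) lost one, with backgrounds of 5.58% and 8.53%. Fewer Vmn genes had a WT origin to start with, and the picture changed when shares were taken over the genes that could change. Of the 279 Vmn genes without a WT origin, 26.9% gained one in APH and 22.6% in CDC6. Among all genes without a WT origin the shares were 34.9% and 40.1%, and among olfactory receptor genes 23.3% and 21.1%. Of the 70 Vmn genes with a WT origin, 24.3% had none in APH and 27.1% had none in CDC6, beside 7.51% and 5.84% of all such genes and 24.3% and 31.4% of such olfactory receptor genes. From CDC6 to APH, 14.9% of the Vmn genes without a CDC6 origin gained one and 18.4% of those with one lost it, beside 21.9% and 11.4% of all such genes. The Vmn values were nearer to those of the olfactory receptors than to those of all genes, a description of 1 list a condition without a test.

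Merged over the lists, the Vmn origins formed 211 regions of 45227 on the autosomes, with a Vmn1r gene nearest to 103 and a Vmn2r gene nearest to 108. All 3 lists held 34 of them (16.1%), against 25.7% of all autosomal regions. The APH and CDC6 lists alone shared 51 (24.2%, against 17.3%). A further 52 (24.6%) were in the APH list alone, 37 (17.5%) in the CDC6 list alone and 22 (10.43%) in the WT list alone, against 19.01%, 20.3% and 8.40%. WT and APH shared 8 (3.79%) and WT and CDC6 shared 7 (3.32%), against 5.33% and 3.88%. A MACS peak was present in all 6 libraries at 70 of the 211 regions (33.2%), against 49.4%.

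**Figure D5:**
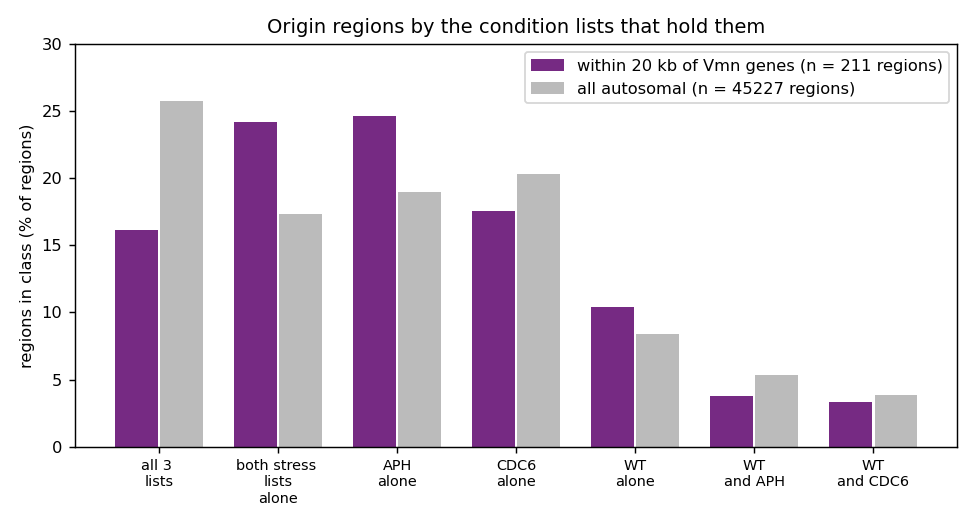
Percentage of merged origin regions (y axis, from 0) by the condition lists that hold them, for 211 regions near Vmn genes and all 45227 autosomal regions. Vmn regions are less often in all 3 lists, 16.1% against 25.7%, and more often in both stress lists alone, 24.2% against 17.3%; these shares carry no test.

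Absence from the WT list did not mean absence of WT peaks. Of the 140 Vmn regions without a WT origin, 118 (84.3%) had a MACS peak in WT 2 and 53 (37.9%) in WT 1. For all autosomal regions without a WT origin the shares were 64.2% and 56.6%. Both WT libraries had a peak at 44 of the 140 (31.4%, against 36.2%), and neither at 13 (9.29%, against 15.5%). The gap between the WT libraries was wider near Vmn genes than over the autosomes, and it was not tested.

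The origin region with the highest folds near a Vmn gene overlapped the 3′ end of Vmn1r48 (chr6:90033279-90036137). The authors' fold of its strongest MACS peak was 6.97 and 8.03 in WT, 9.64 and 13.5 under APH, and 13.4 and 9.24 under CDC6. Every library had a peak there with a mean percentile rank of 99.7, although the region was in the APH and CDC6 lists alone. The same peak was the strongest within 20 kb of Vmn1r47, whose promoter sequence matches that of Vmn1r48 shown above.

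Other regions of both stress lists alone were also peaks in WT libraries. Near Vmn2r66 (chr7:85023471-85024745) the folds were 4.90 and 5.06 in WT, 5.03 and 6.98 under APH, and 9.25 and 6.86 under CDC6. Near Vmn1r56 (chr7:5202428-5203652) they were 4.45 and 4.54 in WT, 4.81 and 7.52 under APH, and 7.68 and 5.96 under CDC6. Near Vmn2r89 (chr14:51439549-51442197) WT 1 had no peak, WT 2 had 6.16, APH had 6.49 and 6.87, and CDC6 had 7.47 and 6.94. These folds are each peak's own value from lists of unknown depth and do not measure a change.

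Among regions of all 3 lists, the one near Vmn1r2 (chr4:3175025-3178215, 3617 bp from the gene by its midpoint) had folds of 6.04 and 5.13 in WT, 6.47 and 6.87 under APH, and 6.78 and 5.52 under CDC6. The region near Vmn1r82 (chr7:12287726-12290579) had 4.80 and 4.77 in WT, 5.26 and 7.15 under APH, and 7.38 and 5.70 under CDC6. Inside Vmn2r57 (chr7:41428975-41430440) the folds were 4.32 and 5.13 in WT, 3.58 and 4.09 under APH, and 6.30 and 5.13 under CDC6. The fourth, near Vmn1r238 on chromosome 18, ranged from 3.84 to 6.30. All 4 had a peak in each of the 6 libraries.

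The named regions of 1 list alone had folds of at most 5.20. In the WT list alone, a region inside Vmn2r90 (chr17:17714002-17714582) had folds of 3.02 and 3.11 in WT and no peak in the stressed libraries. A second region with that pattern lay near Vmn1r61, with 2.68 and 2.86. Those near Vmn2r83 and Vmn1r65 had peaks in 3 of the 4 stressed libraries, so their absence from the stress lists was not absence of peaks. In the APH list alone, the strongest regions lay in or near Vmn2r35, Vmn1r75, Vmn2r97 and Vmn2r90, and each had a peak in WT 2 and none in WT 1. In the CDC6 list alone, a region inside Vmn2r1 (chr3:64191969-64192698) had folds of 4.01 and 4.59 in CDC6 and no peak in the other 4 libraries. The other 3 strongest of that list, near Vmn1r64, Vmn2r88 and Vmn2r63, also had a peak in at least 1 APH library.

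Few origins touched the ends of Vmn genes. Of the 211 regions, 49 (23.2%) had their midpoint inside a Vmn gene, and Vmn gene bodies cover 3.54 of the 14.967 Mb of windows. Within 1 kb of a Vmn gene end lay 13 (6.16%), 7 nearest to the outer start and 6 nearest to the 3′ end of the gene record. Over the autosomes 19.9% of regions lay within 1 kb of an end of any protein-coding gene, a wider measure than ends of Vmn genes. Of the 211 Vmn regions, 2 (0.948%) lay within 1 kb of an end of another gene, Nt5c3 or Zfp160. Near starts, the regions belonged to Vmn1r192, Vmn2r110, Vmn1r226, Vmn1r4, Vmn1r14, Vmn2r25 and Vmn2r26. Near the 3′ ends they belonged to Vmn2r87, Vmn1r6, Vmn1r48, Vmn1r65, Vmn1r76 and Vmn2r57.

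Among these, the region at Vmn1r4 (chr6:56923640-56924566) was in all 3 lists, with folds of 4.67 and 4.12 in WT, 4.01 and 4.60 under APH, and 5.16 and 4.87 under CDC6. It also lay within 1 kb of an end of Nt5c3, which encodes a nucleotidase, so the region cannot be assigned to either gene. The region near the start of Vmn1r226 (chr17:20686103-20686879) was in all 3 lists as well, with folds between 2.52 and 3.08. Near Vmn1r192 (chr13:22188396-22189073) the region was in the CDC6 list alone, with no peak in WT 1, folds of 2.28 in WT 2, 2.25 and 2.50 under APH, and 2.50 and 3.58 under CDC6.

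Promoters of Vmn genes were nearly free of peaks. Of 321 promoters, 0 lay under a MACS peak of WT 1, 3 of WT 2, 3 of APH 1, 0 of APH 2, 1 of CDC6 1 and 1 of CDC6 2, at most 0.935%. For 20019 promoters of protein-coding genes the shares were 59.7%, 39.5%, 40.4%, 45.2%, 52.4% and 51.7%. For 942 olfactory receptor promoters they were between 0.849% and 1.80%. The Vmn promoters with a peak in any library were those of Vmn2r82, Vmn1r192, Vmn1r29, Vmn1r48, Vmn2r33 and Vmn2r38, and only that of Vmn1r192 had one in 3 libraries. No Vmn promoter of the table overlapped a listed origin, against 27.5%, 28.4% and 35.5% of all promoters in the WT, APH and CDC6 lists and 0.318% to 0.425% of olfactory receptor promoters. The same window at the outer start of the gene record, which was used for origins near gene starts, overlapped a listed origin for 2 of 320 genes (0.625%), Vmn1r4 and Vmn1r14. At those starts 2 to 5 of 320 windows lay under a MACS peak of each library.

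Vmn promoters were poor in G and C. The median G plus C share was 36.7%, against 57% over all promoters, and the median number of CG dinucleotides was 1, against 14. A G-quadruplex motif, 4 runs of at least 3 G spaced by 1 to 7 bases on either strand, occurred in 1 of 321 Vmn promoters (0.312%) and in 22.5% of all promoters. Olfactory receptor promoters had the same traits, with a median of 35% G plus C, 1 CG dinucleotide and the motif in 1.17%. Vmn1r48, with a G plus C share of 43.3%, and Vmn1r192, with 36.3%, had 2 CG each, as the capitals above show. These are features of the letters in the window and were not tested as a cause of the missing peaks.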

How the data were processed

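Members and lists were chosen with earlier results of these data known. The submitters' processing notes name GRCm38, mm10 and mm9 as builds and, in no order, bedtools 2.23.0, MACS2 2.0.10, Picard 1.107, SAMtools 0.1.19, BWA 0.7.10 and FastQC; neither roles nor settings are stated there. In the MACS2 layout, each deposited peak carries the authors' score, their fold ratio over 1 shared control, and the −log10 of its p-value and q-value. The deposited condition lists and second lists hold 2 scores per region of unstated meaning. Read depth is unknown. Every row of the WT, APH or CDC6 list was a row of a second list labelled APH 1, CDC6 1 or CDC6 2, whereas both MACS lists of the named condition overlapped 99.5%, 99.98% and 99.95% of them. Second lists were therefore used, as labelled, in alternatives alone. Their labels may be shifted, so their contrasts may compare other conditions than those named.

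Peaks were counted by midpoint with Python 3.11.15 (pandas 2.3.3) and tested with limma 3.58.1 in R 4.3.3 (lmFit, eBayes with trend, Benjamini-Hochberg over all windows). Single values used exact permutation tests, adjusted over 6 tests. Scripts were tested on simulated data. Named genes are those of the largest clusters, the strongest regions of each class, origins at gene ends and the smallest limma p-values. Replicate numbers did not pair the libraries. The Input sample was not analysed here.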

Additional observations from a re-analysis of the deposited data

How the results depend on the processing

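Settings changed direction or size as follows, and the cause was not tested unless given. The difference in the share of peaks between stressed and WT libraries ranged from −0.253 to 0.134 points when 1 library was left out, turning sign without WT 2, and was 0.0276 points in the second lists as labelled. The log2 ratio of Vmn1r to Vmn2r density was 0.0020 with the 20000 strongest peaks of each library. It was −0.72 with windows of 5 kb and −0.0997 in the second lists, and ranged from −0.32 to −0.29 when 1 library was left out. Against olfactory receptor windows the ratio was 0.13 with windows of 5 kb, −0.20 with 50 kb, −0.19 at −log10 q of at least 2 and −0.23 with the 20000 strongest peaks, and ranged from −0.16 to −0.08 with 1 library left out. Against the rest of the autosomes it was −0.72 with the 20000 strongest peaks, −0.45 with windows of 5 kb, −0.35 at −log10 q of at least 2 and −0.34 in the second lists. With 1 library left out it ranged from −0.30 to −0.11, the body ratio from −0.17 to −0.08 and peak strength from −7.24 to −5.57 points. The body ratio was −0.0054 with the 20000 strongest peaks. Without the peak-free stretch, a choice made after seeing the data, the ratios, by construction, rose to 0.031 against the rest, 0.11 against olfactory receptors and 0.19 between the families.

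Windows of 5 kb held 28, 56 and 50 listed origins in WT, APH and CDC6, since they cover less sequence. Lists rebuilt from peaks found in both libraries held 219, 329 and 229, and their CDC6 to WT ratio was 1.05, with no autosomal ratio taken. With no filter on windows with few peaks, limma called 6, 3 and 6 Vmn windows of 349. The contrasts were APH against WT, CDC6 against WT and APH against CDC6, in which 113, 106 and 68 of all 20514 windows were called. Vmn1r203 in APH minus CDC6 was 0.35 with windows of 50 kb. Second lists as labelled gave 0.73 for Vmn1r219 (APH minus CDC6), and in APH minus WT 0.10 for Vmn1r235, 0.94 for Vmn2r59 and −0.45 for Vmn2r92. These second-list values may compare other conditions, since the labels may be shifted. At −log10 q of at least 2, Vmn1r177 and Vmn2r33 were 0.78 in APH minus CDC6, and with windows of 50 kb Vmn2r92 was 0.0079 in CDC6 minus WT. Without scaling, the median over all windows moved from 0.00 to −0.21 in APH minus WT and 24 windows were called, none of them Vmn.

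With the replicate number as a replicate block, 0 Vmn windows were called in each contrast, and 12, 25 and 39 had an unadjusted p under 0.05. The correlations of same-numbered deviations were −0.171, 0.0129 and −0.0763. With 2 libraries a condition and WT 1 from another line, they cannot show whether same-numbered libraries share a batch. Leaving out any 1 library called 0 Vmn windows in each contrast. The read depth behind the lists is unknown, which limits what can be said of precision at single Vmn genes.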
